A study of Mus musculus with 8 samples.

Results

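The genes described here mark the vessels of the mouse retina: 7 endothelial genes (Pecam1, Cdh5, Cldn5, Kdr, Flt1, Tek and Tie1) and 3 genes of mural cells, the pericytes and smooth muscle cells that wrap vessels (Pdgfrb, Cspg4 and Rgs5). They were taken by symbol from the count files, and all 10 were found among 23284 genes. RNA came from microdissected peripheral retina of mice at postnatal day 12. The TET-MYCN group (4 libraries, genotype label Rb null, TET-MYCN) carried Cre under the Pax6 alpha enhancer, a Cre-dependent RTTA transactivator at Rosa26 (LSL-RTTA) and the transgene TRE-MYCN. The Rb-null group (4 libraries) carried Pax6 alpha-enhancer Cre with floxed Rb1 (Rblox/lox). Both groups are labelled as lacking Rb, although the series' design text names floxed Rb1 for the Rb-null mice alone, and no doxycycline is mentioned in the labels. The Pax6 alpha enhancer is active in peripheral retinal progenitors, whereas endothelial and mural cells do not arise from these progenitors. The comparison asks how the retina differs when MYCN is overexpressed without Rb.

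Blood vessels enter the mouse retina after birth from the optic nerve head, and their deeper plexuses are still growing at this age. Endothelial sprouting is driven by VEGFA, which retinal glia and neurons secrete, through the receptor VEGFR2 (Kdr), while VEGFR1 (Flt1) binds the same ligand and limits its action. Angiopoietins act through TIE2 (Tek), with TIE1 as its partner. PDGF-B from endothelial cells recruits pericytes through PDGFRB.

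Sequences just upstream of 3 of these genes are shown because they carry the contrast among the endothelial members described below: Kdr had the highest level, Cldn5 the widest spread among TET-MYCN libraries, and Tie1 the smallest unadjusted p. Each is the 300-base RefSeq window from 250 bases before to 50 after the gene's start, on the gene's strand in GRCm38.p6. Capitals mark GGAA, the core of sites bound by ETS factors, on either strand (TTCC on the printed one).
Kdr (chr5:75978406-75978705, minus strand): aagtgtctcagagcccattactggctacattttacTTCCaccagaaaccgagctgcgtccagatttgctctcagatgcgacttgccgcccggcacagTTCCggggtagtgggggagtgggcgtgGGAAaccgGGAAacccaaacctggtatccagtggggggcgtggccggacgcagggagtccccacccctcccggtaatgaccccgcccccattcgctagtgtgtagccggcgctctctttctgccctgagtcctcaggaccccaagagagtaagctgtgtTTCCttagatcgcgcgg
Cldn5 (chr16:18776597-18776896, plus strand): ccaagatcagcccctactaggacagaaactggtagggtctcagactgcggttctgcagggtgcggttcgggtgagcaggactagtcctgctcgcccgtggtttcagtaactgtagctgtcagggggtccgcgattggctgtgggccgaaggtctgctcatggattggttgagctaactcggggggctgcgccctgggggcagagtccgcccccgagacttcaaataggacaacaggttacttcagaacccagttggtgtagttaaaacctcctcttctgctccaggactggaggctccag
Tie1 (chr4:118489800-118490099, minus strand): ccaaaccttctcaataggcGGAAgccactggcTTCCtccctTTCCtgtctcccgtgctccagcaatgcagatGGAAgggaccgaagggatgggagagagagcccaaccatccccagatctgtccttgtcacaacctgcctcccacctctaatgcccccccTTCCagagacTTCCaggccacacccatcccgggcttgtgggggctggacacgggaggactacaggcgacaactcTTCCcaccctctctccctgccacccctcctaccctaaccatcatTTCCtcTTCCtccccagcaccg
GGAA occurred 5 times in the Kdr window, 9 times in that of Tie1 and 0 times in that of Cldn5. It was in 6 of the 7 member windows the RefSeq table holds (Cldn5, Kdr, Flt1, Tek, Tie1, Cspg4 and Rgs5), and in 96.0% of all 32851 windows of that length. The E-box CACGTG, which MYC proteins bind, was in 0 of the 7 windows and in 7.15% of all windows. With no E-box present, the motifs overlapped in none of these windows, and a match or its absence is a property of these letters only.

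Gene counts per library were 16166000 to 22873979 in the TET-MYCN group and 14872131 to 20007977 in the Rb-null group. Retinal genes were present as the tissue label implies, for example Crx, a photoreceptor transcription factor, at 477 to 873 CPM in TET-MYCN and 734 to 1310 CPM in Rb-null libraries (CPM, counts scaled to library size by TMM). Mycn was at 201 to 276 and 108 to 339 CPM and Rb1 at 123 to 179 and 138 to 184 CPM in the TET-MYCN and Rb-null libraries, so mouse transcript levels did not separate the groups and each direction below rests on the labels. Reads of the transgene need not be counted at mouse Mycn, and a floxed allele can keep most Rb1 exons. Lens genes were unequal, with the 7 lens markers summing to 8.70 to 40.1 CPM in TET-MYCN and 14.6 to 395 CPM in Rb-null libraries, highest in Rb-null 3 and Rb-null 2.

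None of the 10 vascular genes passed the test, and 9 of the 10 had lower estimates in the TET-MYCN libraries. A positive estimate was found for 1 member, against 52.2% of all genes tested. Their median log2 fold change was -0.29, against 0.01 over all 15106 genes tested. All 7 endothelial genes were negative (median -0.39), as were Pdgfrb and Rgs5, while Cspg4 was positive. With edgeR's quasi-likelihood test and Benjamini-Hochberg adjustment over all genes, 0 members were called, against 0.0596% of all genes. At an unadjusted p under 0.05 there were 2, Tie1 and Pdgfrb, both lower, against 7.72% of all genes lower and 15.8% in either direction. None was higher at that p, against 8.06% of all genes. DESeq2 called 0 members against 3.51% of all genes, and limma-voom called 0 members and 0% of genes, with 3 members at an unadjusted p under 0.05 (Cldn5, Tie1 and Pdgfrb) against 15.0% of genes. The groups of 4 libraries did not overlap for 1 member, Pdgfrb, against 7.65% of all genes in either direction, 3.29% with TET-MYCN below and 4.36% with TET-MYCN above. No cause of these estimates was tested. In bulk RNA, cell number and RNA per cell cannot be told apart, and CPM gives only a gene's share of its library.

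**Figure D1:**
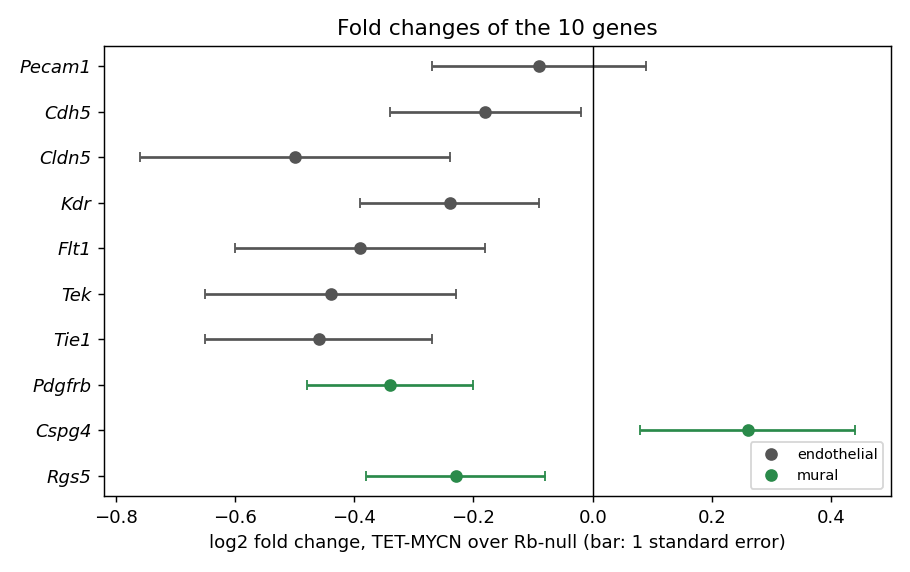
Log2 fold change of each gene, TET-MYCN over Rb-null (x axis), with 1 standard error from edgeR as the bar; grey points are endothelial genes and green points mural genes. Of the 10 points, 9 lie left of 0 and that of Cspg4, at 0.26, lies right of it.

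The junction and adhesion genes had levels that overlapped between the groups. Pecam1, the adhesion molecule CD31 at endothelial contacts, was at 10.1, 7.75, 10.1 and 6.80 CPM in TET-MYCN 1 to 4, against 10.3, 7.41, 8.91 and 10.2 CPM in Rb-null 1 to 4. Its log2 fold change of -0.09 ± 0.18 (SE) was the closest to 0 of the 10 and its adjusted p was 0.864 (edgeR). Cdh5, which codes for VE-cadherin of the adherens junction, was at 11.7, 8.52, 10.8 and 8.51 CPM in TET-MYCN libraries, against 11.4, 12.2, 9.50 and 11.7 CPM in Rb-null libraries (-0.18 ± 0.16, adjusted p = 0.623, edgeR). For both genes TET-MYCN 4 had the lowest of the 8 values. Without TET-MYCN 4 the Pecam1 estimate was 0.014.

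Cldn5, the main tight junction claudin of the blood-retina barrier, differed most among the TET-MYCN libraries. It was at 18.0, 17.0, 35.5 and 14 CPM in TET-MYCN 1 to 4, against 29.2, 28.4, 26.1 and 35.4 CPM in Rb-null 1 to 4. TET-MYCN 1, 2 and 4 lay below every Rb-null library, and TET-MYCN 3 had the highest value of all 8. The coefficient of variation was 46.0% in the TET-MYCN group and 13.4% in the Rb-null group. Over all libraries the log2 fold change was -0.50 ± 0.26, the largest in size among the members (adjusted p = 0.387, edgeR). Leaving out TET-MYCN 3 gave -0.87 (adjusted p = 0.0313), the 1 call of a member in any fit that was run, where 1.52% of all genes were called. TET-MYCN 3 also had the highest value of the group for the barrier transporter genes Slco1c1 and Mfsd2a. These were at 13.7 and 9.16 CPM, against 3.27 to 5.89 and 4.26 to 4.89 CPM in the other 3. By contrast, Slc2a1 and Lef1, of the same barrier and transport list, were lowest of the group in TET-MYCN 3. They were at 206 and 3.09 CPM, against 242 to 272 and 4.57 to 5.24 CPM in the other 3. Mfsd2a and Slc2a1 are named after their values were seen.

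The VEGF receptors showed another order of libraries. Kdr was at 284, 429, 273 and 301 CPM in TET-MYCN 1 to 4, against 392, 424, 358 and 344 CPM in Rb-null 1 to 4. TET-MYCN 1, 3 and 4 lay below all Rb-null libraries, and TET-MYCN 2 had the highest value of all 8. Its log2 fold change was -0.24 ± 0.15 (adjusted p = 0.483, edgeR). Flt1 was at 23.2, 35.3, 16.4 and 24.2 CPM in TET-MYCN libraries, against 28.2, 37.1, 36.4 and 28.5 CPM in Rb-null libraries (-0.39 ± 0.21, adjusted p = 0.395, edgeR). Again TET-MYCN 2 stood with the Rb-null libraries and the other 3 below them. Both receptors were lowest in TET-MYCN 3, the library where Cldn5 was highest. Without TET-MYCN 2 the estimates were -0.41 for Kdr and -0.62 for Flt1, with adjusted p of 0.127 and 0.149, where 0.870% of all genes were called.

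The angiopoietin receptor genes varied less among the TET-MYCN libraries than Cldn5 did, with coefficients of variation of 16.5% for Tek and 22.3% for Tie1. Tek was at 3.64, 2.86, 3.20 and 2.47 CPM in TET-MYCN 1 to 4, against 3.97, 4.31, 3.21 and 5.05 CPM in Rb-null 1 to 4, from 49 to 78 reads a library. The groups touched at TET-MYCN 1, which exceeded Rb-null 3, and the log2 fold change was -0.44 ± 0.21 (adjusted p = 0.334, edgeR). Tie1 was at 8.65, 7.62, 9.89 and 5.69 CPM in TET-MYCN libraries, against 10.8, 10.3, 9.77 and 12.8 CPM in Rb-null libraries. The groups overlapped only in TET-MYCN 3 against Rb-null 3, and TET-MYCN 4 and Rb-null 4 were the extremes for both genes. The log2 fold change of Tie1 was -0.46 ± 0.19 (unadjusted p = 0.0347, adjusted p = 0.282, edgeR).

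None of the 3 mural genes passed the test, and their estimates were negative for Pdgfrb and Rgs5 and positive for Cspg4. Pdgfrb, the PDGF receptor needed to recruit pericytes, was at 14.7, 20.9, 20.1 and 19.1 CPM in TET-MYCN 1 to 4, against 23.1, 27.8, 22.3 and 21.4 CPM in Rb-null 1 to 4. Every TET-MYCN value lay below every Rb-null value, the nearest pair of libraries being TET-MYCN 2 at 20.9 CPM and Rb-null 4 at 21.4 CPM. The log2 fold change was -0.34 ± 0.14 (unadjusted p = 0.0405, adjusted p = 0.296, edgeR). Rgs5, a regulator of G protein signalling enriched in pericytes, was at 13.5, 14.6, 13.8 and 16.7 CPM in TET-MYCN libraries, against 18.0, 14, 16.0 and 20.9 CPM in Rb-null libraries (-0.23 ± 0.15, adjusted p = 0.477, edgeR). The groups overlapped, with TET-MYCN 2 and 4 above Rb-null 2 and TET-MYCN 4 also above Rb-null 3. Cspg4, the NG2 proteoglycan of pericytes and of oligodendrocyte precursors, was at 10.4, 10.4, 8.99 and 14.5 CPM in TET-MYCN libraries, against 9.42, 10.9, 8.19 and 8.48 CPM in Rb-null libraries (0.26 ± 0.18, adjusted p = 0.510, edgeR). TET-MYCN 4 was the highest library for Cspg4. Without it the Cspg4 estimate was 0.10. Sox10, a defining gene of oligodendrocyte precursors, was at 0 to 0.151 CPM in TET-MYCN and 0 to 0.255 CPM in Rb-null libraries.

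**Figure D2:**
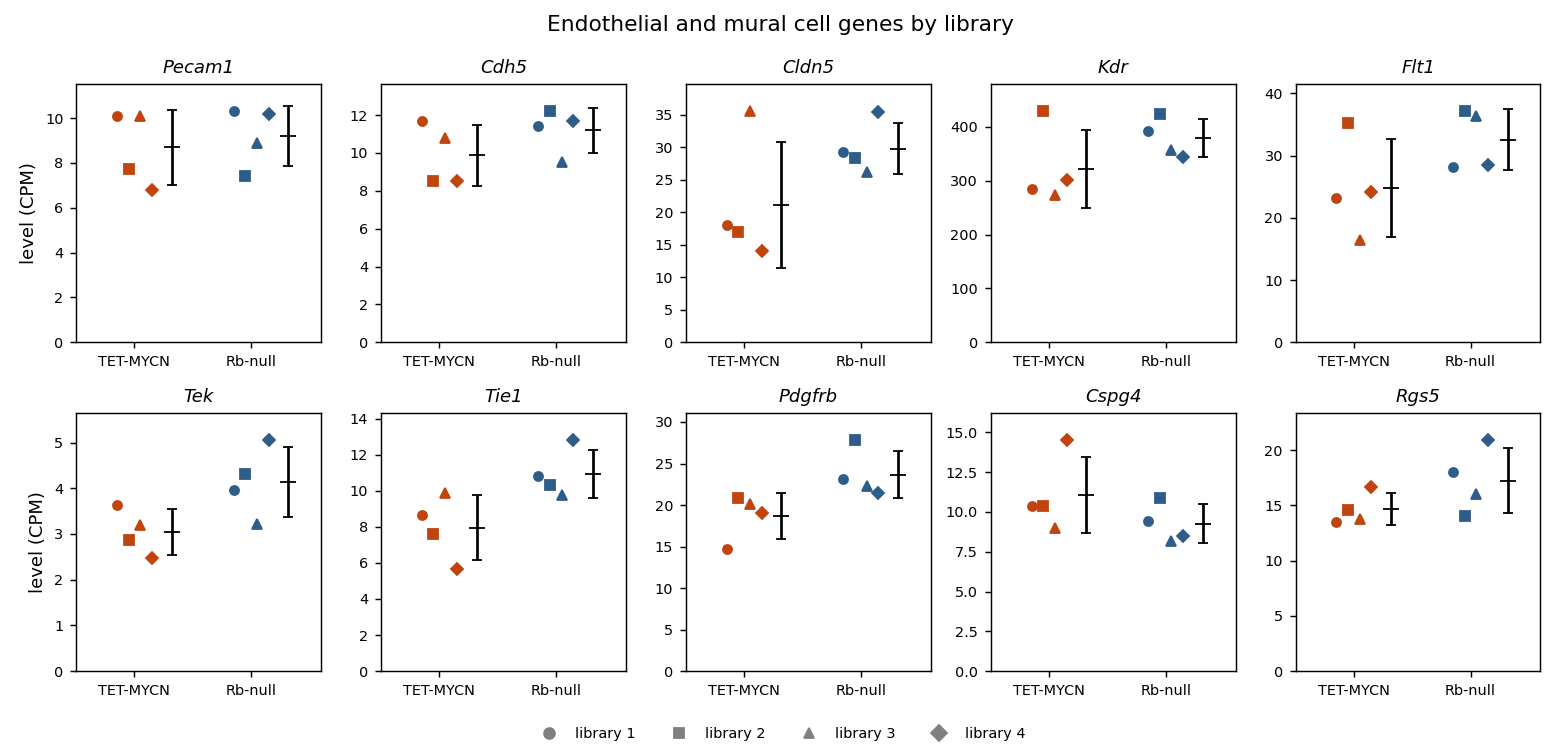
Level of each gene in CPM (y axis, from 0) in the 4 TET-MYCN and the 4 Rb-null libraries; symbols stand for library numbers and black marks for the mean ± SD of each group. The groups are apart for Pdgfrb, and Cldn5 in TET-MYCN 3 and Kdr in TET-MYCN 2 sit among or above the Rb-null libraries while the other 3 TET-MYCN libraries sit below them.

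Levels were compared between genes as CPM per kb of exon (union of GENCODE M21 exons, so a gene with long rare exons reads low). Kdr had the highest level, at 38.8 ± 6.78 CPM per kb (mean ± SD over 8 libraries), which was 26.9 times that of Pecam1. As background, Kdr is also made by neural cells of the mouse retina, progenitors among them. Cldn5 came next at 18.0 ± 5.85 CPM per kb, and all 8 libraries kept Kdr above Cldn5 and Cldn5 above the rest. Pdgfrb at 3.87 ± 0.675 and Rgs5 at 3.51 ± 0.558 CPM per kb had overlapping ranges, with Pdgfrb higher in 5 of 8 libraries. The ranges of Rgs5 and Cdh5 (2.51 ± 0.353 CPM per kb) did not overlap. Cdh5, Flt1 (2.12 ± 0.542), Tie1 (1.92 ± 0.436), Pecam1 (1.44 ± 0.231), Cspg4 (0.852 ± 0.167) and Tek (0.762 ± 0.177 CPM per kb) followed, each overlapping its neighbour in the order, although Tie1 was above Pecam1 in all 8 libraries. The order of group means was the same in both groups except that Cspg4 was above Tek in the TET-MYCN libraries and below it in the Rb-null libraries.

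**Figure D3:**
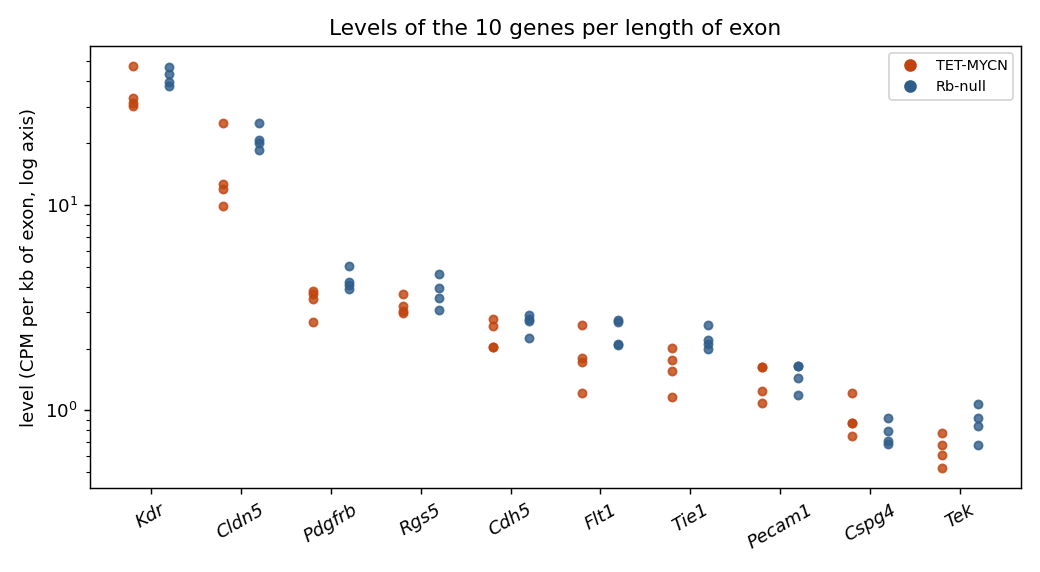
Level per kb of exon on a log axis (y) for each gene, ordered by its mean over all 8 libraries; each point is a library, TET-MYCN in orange and Rb-null in blue. Kdr and Cldn5 stand above the other 8 genes, which range over 0.524 to 5.07 CPM per kb.

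The 7 endothelial genes summed to 360, 508, 359 and 362 CPM in TET-MYCN 1 to 4, against 486, 524, 452 and 448 CPM in Rb-null 1 to 4. TET-MYCN 2 stood apart from its group, and Kdr, which neural cells also make, was 76.1% to 84.5% of the sum. Without Kdr, a sum chosen after seeing the data, the 6 other endothelial genes gave 75.4, 79.0, 85.9 and 61.6 CPM in TET-MYCN libraries, against 93.9, 99.6, 93.9 and 104 CPM in Rb-null libraries. On this sum the groups did not overlap, with means of 75.5 ± 10.2 and 97.8 ± 4.75 CPM in TET-MYCN and Rb-null (SD, n = 4 each). Flt1 and Cldn5 weighed most in it, with means of 28.7 and 25.4 CPM over all libraries. Each overlapped between the groups, and in TET-MYCN 3 Flt1 was at its lowest and Cldn5 at its highest. The 3 mural genes summed to 38.6, 46.0, 42.9 and 50.3 CPM in TET-MYCN libraries, against 50.5, 52.7, 46.5 and 50.7 CPM in Rb-null libraries, and the groups overlapped through TET-MYCN 4. For TET-MYCN 4, the ratio of the mural sum to the endothelial sum without Kdr was 0.816. It was 0.499 to 0.582 in the other TET-MYCN libraries and 0.490 to 0.538 in the Rb-null libraries. Mural genes beyond the 3 went both ways in TET-MYCN 4: of the 8 libraries, Abcc9 was lowest there (6.24 CPM) and Notch3 highest (25.9 CPM). Whether the ratio reflects numbers of cells was not tested. TET-MYCN 4 held the lowest value of 5 of the 10 genes, all endothelial. The sums carry no test, since the genes were chosen with earlier results known.

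**Figure D4:**
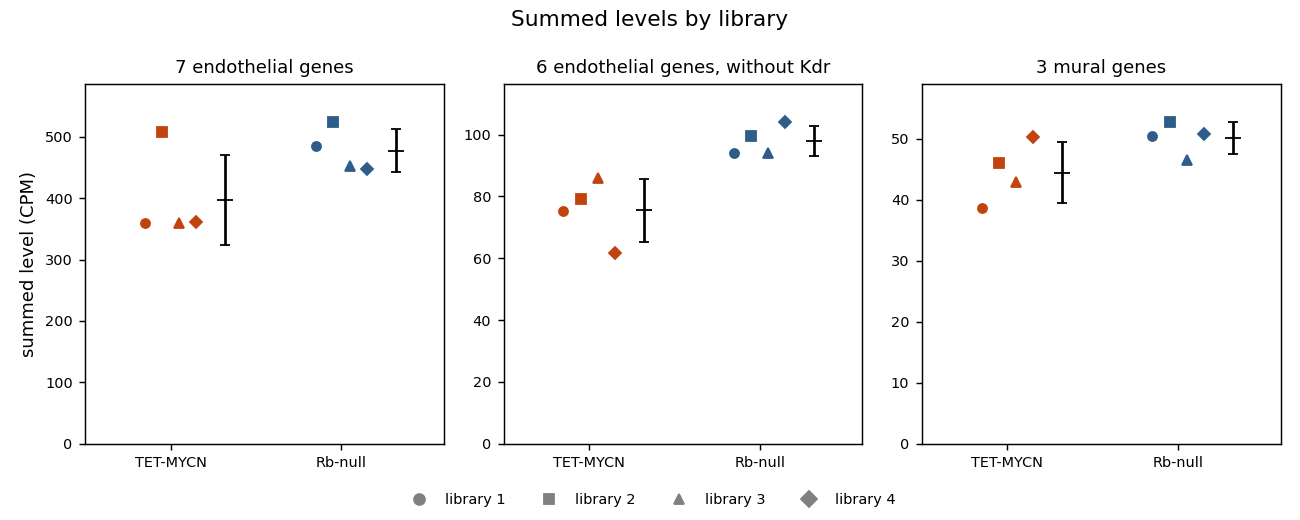
Summed level in CPM (y axis, from 0) of the 7 endothelial genes, of these without Kdr, and of the 3 mural genes, by library; black marks are the mean ± SD of 4. TET-MYCN 2 at 508 CPM stands with the Rb-null libraries in the first panel, and the groups are apart in the second.

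Genes of other cells that could share or replace vascular signal were read in the same libraries. The 10 microglia and macrophage markers summed to 94.2 to 154 CPM in TET-MYCN and 89.5 to 147 CPM in Rb-null libraries, and all 10 were detected. Within that list Mrc1, a receptor of perivascular macrophages named after its values were seen, was at 4.51, 0.692, 0.618 and 4.78 CPM in TET-MYCN 1 to 4 and at most 0.425 CPM in the Rb-null libraries (adjusted p = 0.159, edgeR; called higher by DESeq2). Lyve1, another gene of perivascular macrophages, had an estimate of the other sign, at 0.692 to 2.41 CPM in TET-MYCN and 1.03 to 4.58 CPM in Rb-null libraries (adjusted p = 0.389, edgeR). Of the 10 markers 7 had positive and 3 negative estimates (Lyve1, P2ry12 and Csf1r), with a median log2 fold change of 0.09, and edgeR called 0. At an unadjusted p under 0.05, 2 were higher and 0 lower, against 8.06% and 7.72% of all genes. The 6 fibroblast markers summed to 32.6 to 77.9 CPM in TET-MYCN and 37.0 to 59.3 CPM in Rb-null libraries. Of these, Postn was at 4.46 to 10.3 CPM in TET-MYCN and 2.29 to 3.83 CPM in Rb-null libraries, without overlap (adjusted p = 0.164, edgeR; called higher by DESeq2), and Col1a1 at 10.5 to 39.4 and 7.27 to 14.7 CPM in TET-MYCN and Rb-null. The collagen genes Col1a2 and Col3a1 had negative estimates (-0.52 and -0.58), and Dcn and Lum were at 0.247 CPM or less in every library. The 6 pigment epithelium markers summed to 11.6 to 59.1 CPM and 10.8 to 43.0 CPM in TET-MYCN and Rb-null libraries, highest in TET-MYCN 4. In that library Dct and Tyrp1 were at 33.8 and 20.5 CPM, whereas Rpe65 was at 0.101 CPM. Of the 3 tested markers Tyrp1 and Dct had positive estimates and Ttr a negative one. Astrocyte markers, the scaffold of the growing vessels among them, summed to 44.9 to 167 CPM and 53.9 to 103 CPM in TET-MYCN and Rb-null libraries, of which Gfap, which stressed Müller glia also make, was most. Pax2, restricted to astrocytes in the retina, was at 1.73 to 3.26 CPM in TET-MYCN and 2.16 to 5.30 CPM in Rb-null libraries. Of the 5 red cell markers in the files Hbb-b2, Hba-a1 and Hba-a2 were listed at 0 in every library. Reads without a unique alignment were not counted, and whether this gave the zeros was not tested. Hbb-b1 was at 0 to 0.0618 CPM in TET-MYCN and 0.0509 to 0.197 CPM in Rb-null libraries. Alas2 was at 0.403 to 1.08 CPM in TET-MYCN and 0.608 to 5.90 CPM in Rb-null libraries, highest in Rb-null 3. Among retinal neuron genes Grm6, a glutamate receptor of ON bipolar cells named after its values were seen, was at 29.1 to 63.9 CPM in TET-MYCN and 64.9 to 201 CPM in Rb-null libraries. Its groups did not overlap, and it missed the threshold (adjusted p = 0.164, edgeR's quasi-likelihood test). The part of these cell types in the vascular values was not tested.

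Beyond the 10 genes, 9 further vascular lists held 102 genes, of which 97 were tested. One of them, Ndufa4l2, passed as higher and 0 as lower with edgeR, where 0.0596% of all genes passed. At an unadjusted p under 0.05, 17 were higher and 11 lower, against 8.06% and 7.72% of all genes. Of the 97 genes 44.3% were positive, against 52.2% of all genes, and their median log2 fold change was -0.09. These shares of all genes are the background for the counts by list below. DESeq2 called 3 higher (Heyl, Ndufa4l2 and Nid2) and 3 lower (Ptprb, Nos3 and S1pr1), against 3.51% of all genes in either direction. With limma-voom 0 were called, as over all genes. The groups of 4 libraries did not overlap for 3 of the 97 with TET-MYCN above and 3 with TET-MYCN below. Over all genes these shares were 4.36% and 3.29%, so the separations named below are about as frequent as among all genes. The lists are named for roles in vessels, and which retinal cells gave their levels was not tested. Among 27 other endothelial genes 22 were negative and 5 positive, with a median of -0.20 and 0 called by edgeR (0 higher and 6 lower at an unadjusted p under 0.05). Ptprb, the phosphatase VE-PTP that acts on TIE2 and VE-cadherin, was at 12.9, 11.5, 11.6 and 11.3 CPM in TET-MYCN 1 to 4, against 16.4, 16.1, 17.1 and 19.1 CPM in Rb-null 1 to 4. The groups did not overlap, and the log2 fold change was -0.54 ± 0.12 (adjusted p = 0.155, edgeR). S1pr1, a sphingosine phosphate receptor that steadies vessel sprouting, averaged 23.5 ± 4.79 CPM in TET-MYCN and 38.3 ± 5.50 CPM in Rb-null libraries (adjusted p = 0.157, edgeR). Nos3, the endothelial nitric oxide synthase, averaged 8.80 ± 3.79 and 22.0 ± 8.94 CPM in TET-MYCN and Rb-null (adjusted p = 0.164, edgeR). Its Rb-null values were spread, at 17.3, 11.9, 31.3 and 27.4 CPM.

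Barrier and transport genes were mixed, with 8 of 12 negative, a median of -0.22 and 0 called (1 higher and 1 lower at an unadjusted p under 0.05). Slco1a4, an organic anion transporter, was at 2.29, 1.73, 4.83 and 2.52 CPM in TET-MYCN libraries, against 4.63, 4.25, 5.05 and 5.18 CPM in Rb-null libraries. TET-MYCN 3 was again the library nearest to Rb-null. The thyroxine transporter gene Slco1c1 averaged 6.66 ± 4.84 CPM in TET-MYCN and 11.3 ± 1.72 CPM in Rb-null libraries. Lef1, a nuclear partner of beta-catenin in Wnt signalling, averaged 4.39 ± 0.916 and 2.69 ± 0.335 CPM in TET-MYCN and Rb-null. Their adjusted p were 0.271, 0.379 and 0.194 (edgeR).

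Other mural genes went both ways, 10 of 20 tested genes positive and 10 negative, with a median of -0.05. At an unadjusted p under 0.05 (edgeR), 6 were higher and 2 lower, against 8.06% and 7.72% of all genes, and 1 was called. Ndufa4l2, a mitochondrial protein gene that hypoxia induces and that marks brain pericytes in mice, rose to 90.0, 76.9, 51.8 and 106 CPM in TET-MYCN 1 to 4, against 21.4, 14.3, 14 and 11.9 CPM in Rb-null 1 to 4 (2.39 ± 0.25 in log2 fold change, adjusted p = 0.0301, edgeR). Every TET-MYCN library was above every Rb-null library. Over 17 other settings its log2 fold change was 2.24 to 2.60, while its adjusted p ranged from 1.03e-17 to 0.484 and missed the threshold in 8 of them. Pdgfrb and Rgs5 had negative estimates in the same libraries. Heyl, a Notch target of mural cells, averaged 17.6 ± 3.73 CPM in TET-MYCN and 9.90 ± 2.76 CPM in Rb-null libraries (adjusted p = 0.170, edgeR). Anpep, the aminopeptidase CD13, was at 4.51, 1.17, 1.74 and 3.98 CPM in TET-MYCN libraries, against 0.866, 1.03, 1.11 and 1.14 CPM in Rb-null libraries (adjusted p = 0.188, edgeR), and its groups did not overlap.

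Of the ligands and receptors that act on the 10 genes' products, none passed. VEGF ligands and further receptors were positive for 6 of 7 tested genes (median 0.15, 2 higher and 0 lower at an unadjusted p under 0.05). Vegfa, the ligand of both Kdr and Flt1 products, was at 377, 428, 218 and 449 CPM in TET-MYCN 1 to 4, against 290, 196, 304 and 228 CPM in Rb-null 1 to 4. TET-MYCN 1, 2 and 4 exceeded all Rb-null libraries and TET-MYCN 3 did not (log2 fold change 0.53 ± 0.23, adjusted p = 0.296, edgeR). Vegfb averaged 58.0 ± 6.70 CPM in TET-MYCN and 48.7 ± 3.27 CPM in Rb-null libraries, and the co-receptor gene Nrp1 44.5 ± 8.65 and 35.1 ± 4.11 CPM.

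Of the angiopoietins, which bind TIE2, Angpt1 was at 6.24, 5.24, 4.78 and 7.35 CPM in TET-MYCN libraries, against 4.68, 3.83, 2.62 and 3.36 CPM in Rb-null libraries. The groups did not overlap, and the log2 fold change was 0.70 ± 0.22 (adjusted p = 0.209, edgeR). Angpt2, which destabilises vessels, averaged 28.2 ± 10.6 CPM in TET-MYCN and 17.1 ± 3.24 CPM in Rb-null libraries (0.72 ± 0.25, adjusted p = 0.228, edgeR), and Angpt4 was at 0.403 to 2.02 CPM and 1.05 to 2.39 CPM in TET-MYCN and Rb-null (-0.68 ± 0.44, adjusted p = 0.478, edgeR). The estimates of Tek, Tie1 and Angpt4 were thus negative and those of Angpt1 and Angpt2 positive.

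All 5 genes of the PDGF list were negative, with a median of -0.08 and 0 called (0 higher and 1 lower at an unadjusted p under 0.05). Pdgfb, the ligand that recruits pericytes, was at 6.56 ± 0.686 CPM in TET-MYCN and 6.63 ± 0.830 CPM in Rb-null libraries. Pdgfa, which neurons make for astrocytes, was at 5.93, 6.66, 6.07 and 6.50 CPM in TET-MYCN libraries, against 7.18, 8.93, 8.98 and 8.01 CPM in Rb-null libraries, without overlap (adjusted p = 0.243, edgeR). Pdgfd averaged 3.84 ± 0.676 and 4.71 ± 0.797 CPM and Pdgfc 12.1 ± 2.71 and 12.8 ± 1.43 CPM in TET-MYCN and Rb-null. In the norrin pathway, which retinal vessels need to form their deep plexus, 3 of 4 genes were negative and 0 passed, with 0 at an unadjusted p under 0.05 as well. The receptor gene Fzd4 averaged 8.88 ± 1.97 CPM in TET-MYCN and 11.7 ± 2.81 CPM in Rb-null libraries, its co-receptor gene Lrp5 83.6 ± 24.7 and 61.4 ± 9.50 CPM, and Tspan12 13.7 ± 2.12 and 14.9 ± 1.70 CPM.

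Arterial, venous and tip cell genes were positive for 9 of 10 tested genes, with a median of 0.23 and 0 called (3 higher and 0 lower at an unadjusted p under 0.05). The list names vessel cells, but whether vessels or other retinal cells gave these levels was not tested. Dll4, the Notch ligand of tip cells and arteries and of neurogenic retinal progenitors, was at 21.3, 21.3, 14.8 and 36.5 CPM in TET-MYCN 1 to 4, against 15.2, 15.7, 6.03 and 9.02 CPM in Rb-null 1 to 4 (adjusted p = 0.218, edgeR). Ephb4, a receptor of venous endothelium, averaged 18.2 ± 4.58 and 11.9 ± 1.86 CPM in TET-MYCN and Rb-null, and Plaur, the urokinase receptor, 1.89 ± 0.609 and 0.952 ± 0.448 CPM. Vascular basement membrane genes were positive for 6 of 9 (median 0.35, 3 higher and 1 lower at an unadjusted p under 0.05, 0 called). Nid2, which codes for a nidogen, was at 22.9, 8.27, 6.97 and 29.2 CPM in TET-MYCN libraries, against 6.52, 5.35, 6.55 and 7.07 CPM in Rb-null libraries. TET-MYCN 1 and 4 were the high libraries, as they were for the perlecan gene Hspg2 at 51.6, 29.0, 20.2 and 63.3 CPM against 24.5, 24.6, 21.1 and 21.4 CPM in Rb-null libraries. Nid1 averaged 55.0 ± 8.42 CPM in TET-MYCN and 43.1 ± 3.07 CPM in Rb-null libraries.

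**Figure D5:**
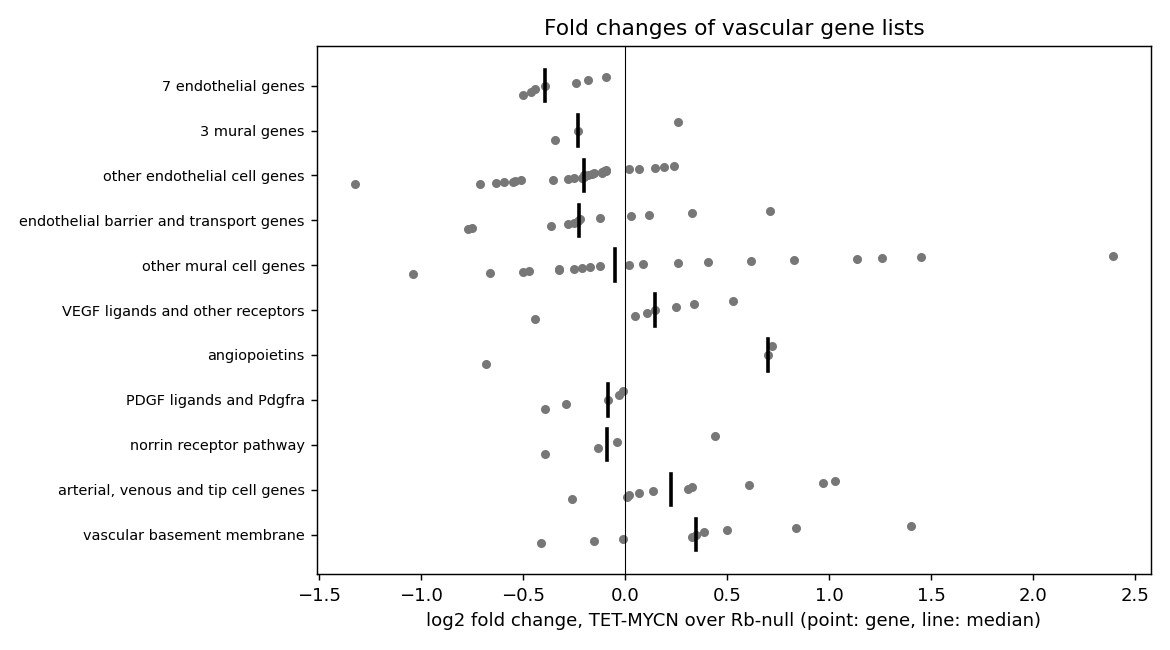
Log2 fold change, TET-MYCN over Rb-null (x axis), of every tested gene (points) in the 10 genes and the 9 further vascular lists, with the median of each as a black line. The endothelial lists lie mostly left of 0, and the point at 2.39 is Ndufa4l2.

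Within the members, library profiles were alike to different degrees. Each gene's log2 CPM was centred on its own mean over 8 libraries and set against the mean profile of its class, which includes the gene itself. The root mean square difference was smallest for Tie1 (0.137), Tek (0.138) and Cdh5 (0.147) among the endothelial genes and largest for Flt1 (0.361) and Cldn5 (0.321), where the class profile itself had a root mean square of 0.212 (log2 units). Among 12330 tested genes with a mean of at least 5 CPM, the 5 closest to the endothelial profile were Tspyl5, Clpx, Accn1, Pls3 and Fam116b, at 0.077 to 0.094, and 0 of them were in the vascular lists. Those lists held only 97 tested genes, few beside the 12330 searched, so 0 of 5 says little about them. The endothelial members themselves lay farther from the profile, at 0.137 to 0.361. The 5 closest to the mural profile were Grik5, 1300018I17Rik, Sgsm3, Acrbp and Pou6f1, at 0.028 to 0.056, again with 0 in the lists. The mural profile was flat, with a root mean square of 0.124, so that many genes with little change come near it.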

How the data were processed

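The authors deposited a table of raw counts by gene symbol for each of 8 libraries, made, per the submitters' processing notes, with CASAVA 1.8.2, TopHat2 2.0.8b and HTSeq 0.5.4p3 on mm9. Options, annotation and strand use: not given in the sources used here. Antisense and overlapping reads cannot be told apart. HTSeq rows that name no gene (28.3% to 31.7% of reads) were left out. Libraries were poly(A)-selected, per the labels. Whether each library is 1 animal is not labelled, and p-values reflect only library-to-library spread, which may be technical.

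Counts were scaled by TMM, and filterByExpr retained 15106 of 23284 genes. Groups were compared by edgeR 4.0.16 (R 4.3.3) with its robust quasi-likelihood test on an intercept and the group, with Benjamini-Hochberg adjustment over all genes and a threshold of 0.05. A standard error is the absolute log2 fold change over the square root of F. A count of 3 was 0.130 to 0.202 CPM. DESeq2 1.42.0, limma-voom (limma 3.58.1), other scalings and filters, a replicate block and left-out libraries were alternatives. The procedure was run on simulated counts, whose outcome is not given here. Replicates differed beyond sampling noise (chi-square per degree of freedom 18.0 to 75.1). The members, lists and tests were chosen with earlier results of these data known. Named were the members, Mycn, Rb1, Ndufa4l2, called genes and the 3 smallest p per vascular list, and the 5 genes closest in profile. Other genes named (Pdgfb, Mfsd2a, Slc2a1, Abcc9, Notch3 and those of the marker lists for other cells) fall outside this rule and were chosen after their values were seen. Part of the retinal marker list is not reported here. Sequences are from RefSeq on GRCm38.p6 and exon lengths from GENCODE M21, not mm9, and 7 of 10 members matched the promoter table. Figures used Python 3.11.15 and matplotlib 3.10.9.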

Additional observations from a re-analysis of the deposited data

Results flagged for a closer look

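The summed level of the 7 endothelial genes in TET-MYCN 2, 508 CPM, lay far from the other 3 TET-MYCN libraries, at 359 to 362 CPM, with a gap to the nearest of 0.977 of the group's range. Rb-null libraries spanned 448 to 524 CPM. Kdr gave 429 of the 508 CPM. Of 26 group-by-gene or group-by-sum sets looked at this was the 1 set apart, and chance sets apart about 1 in 20.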

How the results depend on the processing

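Over 17 other settings, 16 called 0 members. Without TET-MYCN replicate 3 the count was 1, Cldn5, at -0.87 on the log2 scale (adjusted p = 0.0313). The members' median log2 fold change stayed between -0.41 and -0.23, and the scalings moved the median of all genes to at most 0.023. The one reversed estimate was that of Pecam1, 0.014 without TET-MYCN replicate 4, and its range over the fits without 1 library was -0.18 to 0.014. The count of all genes called, 9, was 17 without the filter on low counts, 530 with DESeq2, 0 with limma-voom (2262 genes had an unadjusted p below 0.05), 3 with the replicate number as a block, and 0 when the pair richest in crystallin reads, Rb-null 2 with Rb-null 3, was left out. Leaving out 1 library at a time gave 0 to 230, with 230 without TET-MYCN 3, 132 without TET-MYCN 2, 1 without Rb-null 1 and 0 without any other single library. The cause was not tested. Same-numbered libraries did not deviate together (correlation over genes -0.29 to -0.04), so the block shares only a number; with it 0 members were called. The log2 ratio of summed levels was -0.412 to -0.217 for the 7 endothelial genes, -0.442 to -0.287 for these without Kdr and -0.237 to -0.118 for the mural genes over scalings and left-out libraries. Read depth limits Tek most, with 49 to 78 reads a library.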
